A study of Mus musculus with 2 samples.

Results

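The ligands of checkpoint and costimulatory receptors are the surface proteins and lectins through which one cell sends activating or inhibitory signals to a lymphocyte. A list of 10 genes was examined, Cd80, Cd86, Icosl, Cd274, Pdcd1lg2, Cd276, Pvr, Lgals9, Vtcn1 and Hhla2. Its members were taken as the array features annotated with exactly 1 gene symbol equal to a listed name, which held for 7 of the 10, out of 28281 genes named in this way. Cd274 and Pdcd1lg2, which encode the ligands PD-L1 and PD-L2 of the inhibitory receptor PD-1, and Hhla2, a B7 family gene known from humans, were not analysed here. The 1 group profiled was of ILCreg cells, sorted out of small intestine cells of IL-10-GFP knockin mice, which carry green fluorescent protein at the interleukin 10 locus, aged 8 weeks and on the C57BL/6 background. Whole-transcript arrays were hybridised with amplified RNA of 2 samples, replicate 1 and replicate 2. Both carried the knockin. No other population was analysed here, and no source used here gives the sorting gates. The labels do not state whether separate animals were used for each sample, so what the replicates differ by may be technical.

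T cells and other lymphocytes read these ligands beside the signal of their antigen receptor. CD80 and CD86 on antigen-presenting cells bind the activating receptor CD28 and, more tightly, the inhibitory receptor CTLA-4. ICOSL engages ICOS, PVR engages TIGIT, CD96 and CD226, and galectin-9, the product of Lgals9, is a sugar-binding protein reported to bind TIM-3, encoded by Havcr2. B7-H3 (Cd276) and B7-H4 (Vtcn1) are B7 family members found on many non-haematopoietic cells, whose receptors are less firmly established. In the gut, macrophages, dendritic cells, epithelium and stroma all carry some of these ligands.

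Promoter windows from RefSeq, build GRCm38.p6, were available for 5 of the 7 measured ligands, each reaching from 250 bases before to 50 bases after the gene's start. They were searched on both strands for 7 motifs: the interferon-stimulated response element GAAANNGAAA, the gamma-activated site TTCNNNGAA, the kappa B site, the TATA box TATAAA, the AP-1 site TGANTCA, the cyclic AMP response element TGACGTCA and the E-box CACGTG. The motifs were chosen with the array values known. The 3 windows below are shown because they stand for the ligand furthest above the threshold used here, for a ligand with a CG-rich start and for the ligand that did not pass. They are read in the direction of the gene. Capitals mark both matches to the interferon-stimulated response element in Lgals9 (chr11:78984875-78985174, minus strand), every CG dinucleotide in Cd276 (chr9:58554984-58555283, minus strand) and the match to the AP-1 site in Vtcn1 (chr3:100825209-100825508, plus strand).
Lgals9: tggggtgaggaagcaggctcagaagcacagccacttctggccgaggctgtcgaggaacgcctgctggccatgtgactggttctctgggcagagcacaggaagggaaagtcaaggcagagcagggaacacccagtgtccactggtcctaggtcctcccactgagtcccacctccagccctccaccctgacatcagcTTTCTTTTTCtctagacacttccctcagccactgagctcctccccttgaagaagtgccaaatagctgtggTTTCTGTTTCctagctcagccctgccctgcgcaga
Cd276: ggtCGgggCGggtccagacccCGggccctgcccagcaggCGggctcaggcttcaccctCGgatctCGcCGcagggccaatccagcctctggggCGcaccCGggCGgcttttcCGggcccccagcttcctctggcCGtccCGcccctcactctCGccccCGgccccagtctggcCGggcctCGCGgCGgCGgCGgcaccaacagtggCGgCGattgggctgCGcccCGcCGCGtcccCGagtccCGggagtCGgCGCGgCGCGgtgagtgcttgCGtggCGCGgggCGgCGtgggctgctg
Vtcn1: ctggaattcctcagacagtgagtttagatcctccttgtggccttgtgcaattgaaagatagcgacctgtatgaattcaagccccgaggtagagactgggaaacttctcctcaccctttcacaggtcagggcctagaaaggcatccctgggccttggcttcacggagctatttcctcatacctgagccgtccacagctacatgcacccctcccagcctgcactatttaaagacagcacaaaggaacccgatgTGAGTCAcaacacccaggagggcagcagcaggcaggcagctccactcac

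The Lgals9 window held the interferon-stimulated response element at bases 196 to 205 and 266 to 275, both on the strand opposite to the gene, and 3.44% of the 32851 windows of the gene table held at least 1 match. No other listed ligand with a window had one. The Cd276 window held 39 CG dinucleotides and 78.3% G or C, and 95.6% of all windows held fewer CG dinucleotides. The other measured ligands had 26 (Icosl), 5 (Vtcn1), 4 (Lgals9) and 3 (Cd80), beside a median of 7 over all windows. The AP-1 site was found in the windows of Vtcn1, at bases 252 to 258, and Cd80, at bases 209 to 215, and in 7.81% of all windows. The Cd80 window also held the letters TATAAA at bases 255 to 260 (13.6% of windows hold them anywhere), and the Icosl window a kappa B site at bases 140 to 149 (8.46%). The first 250 bases of a window precede the gene's start. The TATAAA match of Cd80, the AP-1 match of Vtcn1 and the Lgals9 match at bases 266 to 275 therefore lie past the start. None of the measured ligands' windows held the gamma-activated site (8.3%), the cyclic AMP response element (1.79%) or the E-box (7.15%). No matches overlapped within these windows. A match describes the letters of the window and is not a measured binding site.

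On the arrays, 6 of the 7 measured ligands gave signal above the level read from genes that are not expected in these cells, and Vtcn1 did not. That level was set on each array as the 95th percentile of 1678 receptor genes for odour, pheromones and taste (the reference), at a log2 signal of 6.74 in replicate 1 and 6.19 in replicate 2. A gene counted as above the threshold only if it passed on both arrays, as did 31.7% of all named genes. The share was 39% among protein-coding genes outside the reference and 2.44% among the reference genes themselves. The median log2 signal of the 7 ligands was 8.72 in replicate 1 and 9.27 in replicate 2, against 5.49 and 5.38 over all named genes and 8.23 and 8.33 over the protein-coding genes that passed. With a single group, no test of a difference could be made. Values are the authors' signals, taken as log2 from their range since the base is not stated, and probes differ in affinity, so they are read against the threshold and do not order the transcripts of different genes by abundance.

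Cd80 and Cd86, the ligands that CD28 and CTLA-4 share, both passed. Cd86 had a log2 signal of 11.91 in replicate 1 and 12.21 in replicate 2, a mean of 12.06 ± 0.21 (SD, n = 2), and all reference genes were lower on either array. It exceeded the thresholds by 5.17 and 6.02 on the log2 scale. Cd80 gave 9.26 and 9.27, a mean of 9.27 ± 0.01 (SD, n = 2), which lay above the thresholds by 2.52 and 3.08. Of the reference genes, 99.88% were lower than Cd80 in replicate 1, and 99.94% in replicate 2. Both arrays thus placed Cd80 and Cd86 clear of the threshold.

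Icosl, which encodes the ligand of the costimulatory receptor ICOS, had a log2 signal of 8.39 in replicate 1 and 8.06 in replicate 2 (8.23 ± 0.24, SD, n = 2), 1.65 and 1.87 above the thresholds. Cd276, which encodes B7-H3, gave 8.26 and 8.52 (8.39 ± 0.18, SD, n = 2), 1.52 and 2.33 above them. These were the ligands with the smallest margins among those that passed, and both also passed on both arrays when the threshold was raised to the 99th percentile of the reference, by at least 0.49 for Icosl and 0.35 for Cd276. At that percentile 19.8% of named genes passed, and 22.8% of protein-coding ones.

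Pvr, which encodes the poliovirus receptor CD155, had log2 signals of 8.72 and 9.37 in replicates 1 and 2 (9.04 ± 0.46, SD, n = 2), 1.97 and 3.18 above the thresholds. It was the ligand that differed most between the arrays. Lgals9, the galectin-9 gene, lay furthest above the thresholds, by 7.93 and 8.66, with log2 signals of 14.68 and 14.85 (14.76 ± 0.12, SD, n = 2). No reference gene reached it on either array, and it was not among the features at the ceiling of the arrays, 19.80 and 19.86. Vtcn1, which encodes the inhibitory ligand B7-H4, gave 4.73 and 4.31 (4.52 ± 0.30, SD, n = 2), which is -2.01 and -1.88 relative to the thresholds. Of the reference genes, 58.8% were lower than Vtcn1 in replicate 1 and 45.1% in replicate 2, so its signal lay in the middle of the reference, which does not show that the transcript is absent.

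**Figure D1:**
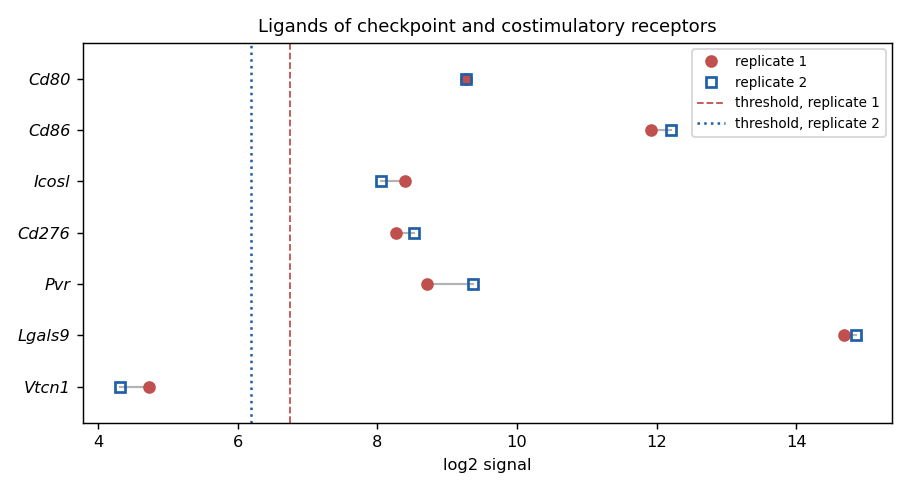
Log2 signal of the 7 measured ligands (rows) in replicate 1 (filled circles) and replicate 2 (open squares), with the threshold of each array as a vertical line (dashed for replicate 1, dotted for replicate 2). The points of 6 ligands lie right of both lines, and both points of Vtcn1, at 4.73 and 4.31, lie left of them.

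The arrays placed the ligands at similar levels. After the median difference of all named genes, -0.05, was taken away, replicate 2 minus replicate 1 ranged from -0.38 for Vtcn1 to 0.70 for Pvr on the log2 scale, with a median of 0.22 over the 7 ligands and 0.13 over protein-coding genes above the threshold. The values of the other ligands were 0.35 for Cd86, 0.31 for Cd276, 0.22 for Lgals9, 0.06 for Cd80 and -0.29 for Icosl. Thus 5 ligands were higher in replicate 2 and 2 in replicate 1, although the sign of Cd80 turned after quantile normalization (-0.08) or when centred on protein-coding genes above the threshold (-0.07). Of all protein-coding genes above the threshold, 63.9% were higher in replicate 2. None of the 7 differed by more than 2-fold, which 4.16% of all genes above the threshold and 3.23% of the protein-coding ones did. Among protein-coding genes above the threshold the absolute difference had a median of 0.27 and a 90th percentile of 0.73, and Pvr lay just inside that percentile. The stromal collagen genes Col1a1 (1.74), Col1a2 (1.89) and Col3a1 (2.08) had larger differences of the same sign as Pvr. Macrophage and epithelial markers also had larger differences, with the same sign for Adgre1 (0.86) and Krt20 (0.81). The sign was opposite for Fcgr1 (-0.88) and Fabp1 (-1.09). The part of any of these genes' cells in the difference of Pvr was not tested. The other measured stromal markers, Dcn and Dpt, differed by 0.11 each. Dpt was at the ceiling of both arrays and Dcn moved as the ceiling did, so these values may hide a difference.

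**Figure D2:**
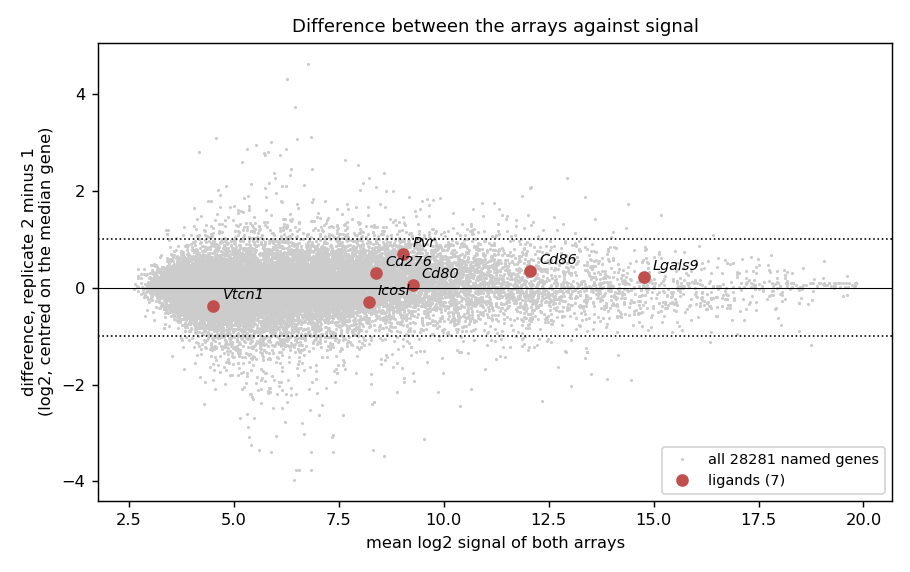
Difference between the arrays, replicate 2 minus replicate 1, centred on the median gene (vertical axis, log2), against the mean log2 signal of both arrays (horizontal axis) for 28281 named genes (grey) and the 7 ligands (red, labelled). Dotted lines mark a 2-fold difference, and all ligands lie between them, from -0.38 for Vtcn1 to 0.70 for Pvr.

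The receptors of these ligands were on the same arrays, and 5 of the 8 measured passed the threshold on both, as did 39% of protein-coding genes outside the reference. Ctla4, the inhibitory receptor of CD80 and CD86, had log2 signals of 10.99 and 10.85 in replicates 1 and 2 (10.92 ± 0.10, SD, n = 2). Cd28, its activating counterpart, gave 6.62 and 6.77 and passed only in replicate 2. Icos, which binds ICOSL, gave 10.08 and 9.96 (10.02 ± 0.09, SD, n = 2). Ctla4 and Icos were thus above the thresholds by at least 4.25 and 3.34, whereas Cd28 was near them on both arrays.

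Among the receptors of PVR, Tigit, an inhibitory receptor, passed with 7.12 and 8.30 (7.71 ± 0.83, SD, n = 2), whereas Cd96 gave 7.33 and 5.78 and passed only in replicate 1. Their centred differences, 1.23 for Tigit and -1.50 for Cd96, exceeded 2-fold and ran in opposite directions. Havcr2, which encodes TIM-3, passed with 7.10 and 7.36 (7.23 ± 0.19, SD, n = 2). Pdcd1, which encodes PD-1, gave 6.83 and 6.72 (6.77 ± 0.07, SD, n = 2) and passed by 0.08 in replicate 1, the smaller of its margins. Rgmb, a co-receptor of bone morphogenetic proteins that also binds PD-L2, gave 5.39 and 5.15 and passed on neither. Cd226 and Tmigd2 were not analysed here. With the 99th percentile of the reference as threshold, Ctla4 and Icos passed, and Pdcd1, Tigit and Havcr2 did not.

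Of 8 known ligand and receptor pairs with both genes measured, both sides passed in 5. These were Cd80 with Ctla4, Cd86 with Ctla4, Icosl with Icos, Pvr with Tigit and Lgals9 with Havcr2. In the pairs of Cd80 and of Cd86 with Cd28, and of Pvr with Cd96, the receptor passed on 1 array only. All ligands of the 8 pairs had passed, so the count restates the calls of the receptors, with Ctla4 counted for both Cd80 and Cd86. With the 99th percentile of the reference as threshold, Tigit and Havcr2 did not pass. The pairs share genes, and the arrays do not show which cells carried either side.

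**Figure D3:**
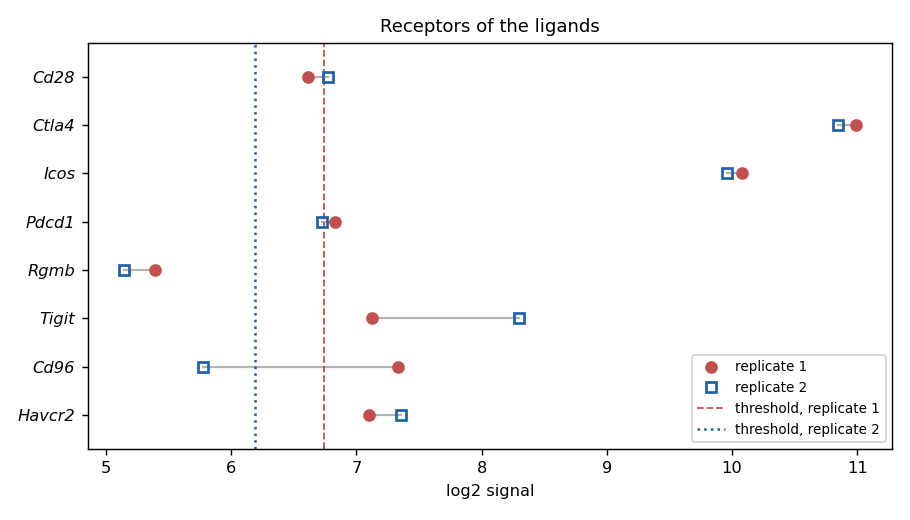
Log2 signal of the 8 measured receptors (rows) in replicate 1 (filled circles) and replicate 2 (open squares), with each array's threshold as a vertical line (dashed for replicate 1, dotted for replicate 2). Ctla4 and Icos lie far to the right at about 11 and 10, Pdcd1, Cd28 and Havcr2 lie near the lines, and Tigit and Cd96 are the receptors with the widest gap between the arrays.

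A wider list of 25 other ligands of costimulatory and inhibitory receptors was divided, with 11 of 22 measured genes above the threshold on both arrays, 10 below it on both, and Btnl2 above it in replicate 2 only. Of protein-coding genes outside the reference, 39% passed on both arrays, and the count was not tested against that share. Its median log2 signal was 6.64 in replicate 1 and 6.80 in replicate 2. Furthest above the threshold was Lgals1, which encodes the glycan-binding galectin-1, with log2 signals of 14.76 and 14.55 (14.65 ± 0.15, SD, n = 2). Ceacam1, an adhesion molecule that binds itself on other cells, followed with 12.74 and 13.23 (12.98 ± 0.34, SD, n = 2), and its near-identical copy Ceacam2 may share probe signal with it. Cd48, the ligand of the receptor CD244, gave 9.48 and 9.46.

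Furthest below the threshold, by the array where each lay lower relative to it, were 3 genes of this list. Tnfsf18, which encodes the ligand of GITR, was at 3.67 on both arrays. The epithelial adhesion gene Nectin4 gave 4.11 and 4.14, and Igsf11, which encodes an adhesion protein reported to bind the checkpoint protein VISTA, gave 4.14 and 4.11. Within the list the widest centred differences were those of Tnfsf4, the OX40 ligand gene, at 0.89, and Vsig4, a macrophage complement receptor gene, at -0.63, both below the threshold on both arrays. None of the 22 genes differed between the arrays by more than 2-fold.

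**Figure D4:**
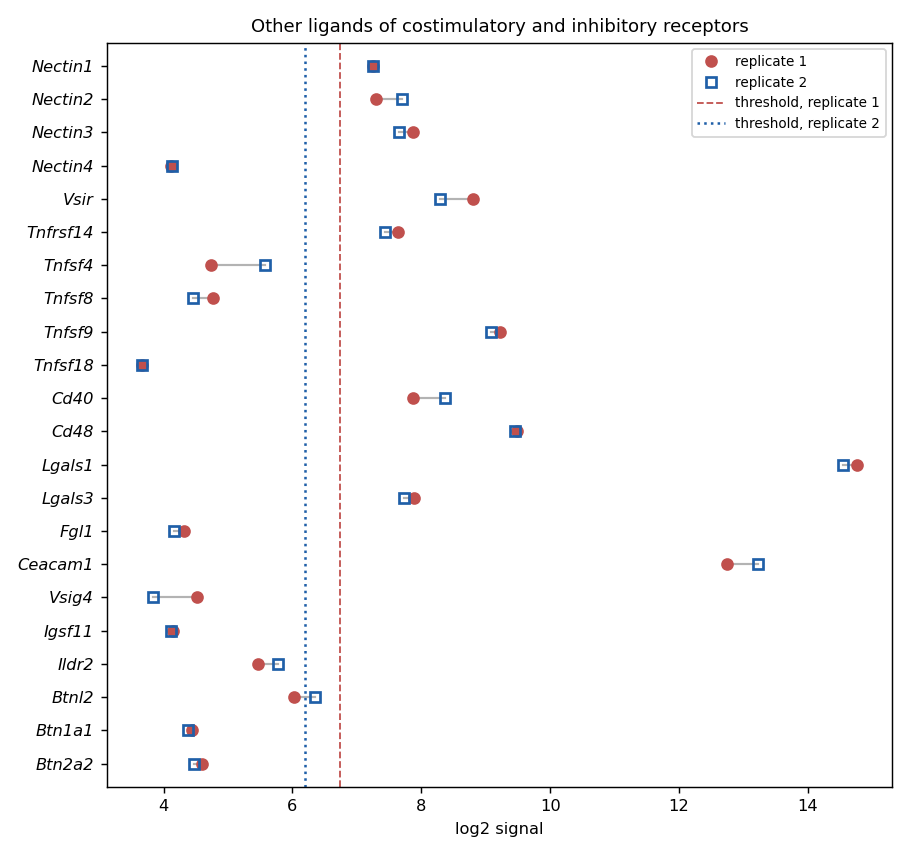
Log2 signal of 22 other ligands of costimulatory and inhibitory receptors (rows) in replicate 1 (filled circles) and replicate 2 (open squares), with each array's threshold as a vertical line (dashed for replicate 1, dotted for replicate 2). The list splits into 11 genes right of both lines, led by Lgals1 and Ceacam1, 10 genes left of both, and Btnl2, which passes in replicate 2 only. Of protein-coding genes outside the reference, 39% passed on both arrays.

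Genes known to control the level or turnover of the ligands mostly passed. Interferon gamma signalling raises the transcription of several of these ligands, NF-kB factors act on Cd80 and Cd86, CMTM6 keeps PD-L1 at the cell surface, and the ubiquitin ligase MARCH1 removes CD86 from it. Of 14 such genes measured, 12 were above the threshold on both arrays, beside 39% of protein-coding genes outside the reference. Rel, an NF-kB subunit gene, had log2 signals of 14.21 and 14.68 (14.45 ± 0.33, SD, n = 2). Ifngr1, the ligand-binding chain of the interferon gamma receptor, gave 13.38 and 13.91, and its partner chain Ifngr2 gave 8.57 and 9.25. The kinase gene Jak1 stood at 11.81 and 12.16, so that these signalling genes were all clear of the threshold.

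Cmtm6 passed with 10.02 and 9.24 (9.63 ± 0.55, SD, n = 2), the widest centred difference of the list at -0.73. Its relative Cmtm4 gave 6.54 and 6.45 and passed only in replicate 2. The MARCH1 gene March1 was at 5.29 and 5.19, below both thresholds. Cd83, whose product protects CD86 from that ligase, gave 7.03 and 7.42 and passed by at least 0.28. March1 was thus within the reference on both arrays, and Cd86 was well above it. MARCH1 acts on the CD86 protein, which the arrays do not measure, and a link between the 2 signals was not tested.

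Markers of several cell types that carry these ligands were on the same arrays. The counts of each marker list stand beside the 39% of protein-coding genes outside the reference that passed on both arrays. No list was tested against that share. In bulk RNA, fewer cells of a type and less RNA per cell cannot be told apart. Per the design text, purity after the sort exceeded 95%, a figure that was not tested here. Markers of stroma, epithelium, plasma cells, macrophages and T cells also passed, with the values given below. How these signals relate to the stated purity was not tested. Of 12 measured innate lymphoid and ILCreg markers 9 passed, among them Ptprc, the pan-leukocyte antigen CD45, at 12.28 and 12.14 in replicates 1 and 2. Il10 gave 10.59 and 11.05. The natural killer receptor gene Ncr1, at 4.63 and 4.71, did not pass, nor did Thy1 (5.56 and 5.72) and Klrg1 (5.90 and 5.41). All 8 macrophage markers passed, from Mertk, lowest by the mean of both arrays at 7.31 and 7.34 (Fcgr1 gave 8.16 and 7.24), to the lysozyme gene Lyz2 at 14.76 and 14.66, and their median log2 signal was 9.58 and 10.23. Of 9 dendritic cell markers 4 passed, the highest being H2-Aa, an MHC class II gene, at 14.01 and 14.28. Itgax, Ccr7 and Clec9a were the others. Flt3, Zbtb46 and Siglech passed on neither array, nor did Xcr1, the lowest, at 4.33 and 4.44. Cd209a passed in replicate 2 only. The dendritic cell list had a median of 5.89 and 6.27.

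Among B cell markers 2 of 4 passed, with Cd79b highest by the mean of both arrays at 7.10 and 7.13 (Cd79a gave 6.76 and 7.41), and Fcer2a was lowest at 4.58 and 4.73. Plasma cell markers passed in 3 of 4 cases, with the antibody joining chain gene Jchain at 17.47 and 18.11 and Tnfrsf17 below the threshold on both arrays. Of 5 T cell markers 4 passed, with Cd3e at 9.68 and 9.90 and Cd8a at 5.33 on both arrays. All 7 epithelial and all 5 stromal markers passed, with medians of 12.08 and 11.86 for epithelium and 13.54 and 15.23 for stroma. The epithelial list ran from Krt20 at 9.03 and 9.80 to Krt8 at 15.42 and 15.76. The stromal list ran from Col1a2 at 10.94 and 12.78 to Dpt, which was at the ceiling on both arrays and has only a lower bound.

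Endothelial markers passed in 3 of 6 cases, with Pecam1 highest at 7.89 and 8.09 and Emcn lowest at 5.10 and 5.62. Granulocyte and mast cell markers passed in 2 of 6, with Prg2 highest at 8.18 and 8.95 and Mpo lowest by the mean of both arrays at 4.47 and 4.49, although S100a8 (4.24) and Cpa3 (4.47) were lower in replicate 2. The part of these cell types in the signals of Cd80, Cd86, Icosl, Cd276, Pvr and Lgals9 was not tested. With 1 population in the series, a ligand transcript cannot be assigned to a cell type.

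**Figure D5:**
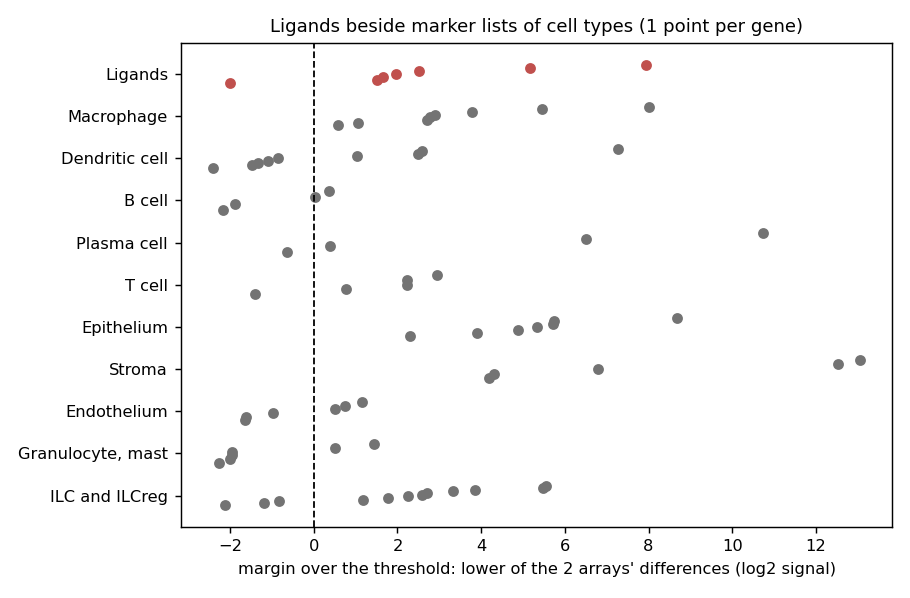
Margin over the threshold (horizontal axis, log2 signal), taken on the array where the gene lay lower relative to its threshold, for each measured ligand (red, top row) and each marker of 10 cell type lists (grey), 1 point per gene. Points right of the dashed line passed on both arrays: 6 of 7 ligands, all macrophage, epithelial and stromal markers, and some of every other list. Of protein-coding genes outside the reference, 39% passed.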

How the data were processed

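Gene expression was measured in 2 samples of 1 group. The authors' deposited table holds 1 log2 signal per array feature and sample, and the submitters' processing notes name MAS5, with no version or role. The log base is read from the range of the values, 2.10 to 19.86, and is not given in the sources used here, nor are background correction, scaling and build, so fold limits hold only if the base is 2. Of 61344 features 28573 carried 1 symbol, updated through Entrez identifiers of the GRCm38.p6 table (783 changed). For the 213 genes with several features, that of highest mean signal was used. No feature with several symbols named a listed ligand.

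Signals were set against the 95th percentile of 1678 olfactory, vomeronasal and taste receptor genes. Differences are replicate 2 minus replicate 1, centred on the median gene. The code for calls and centring was checked on simulated data drawn from the reference genes, which does not test the calls of the ligands. Across genes the arrays had a Pearson's r of 0.986 (genes are not independent replicates), and the number of arrays limits the precision. Members, lists and threshold were chosen with earlier results of these data known. Named are all ligands and receptors, of the wider ligand and regulator lists the 3 highest and 3 lowest relative to the threshold and the 2 most different between arrays, and the highest and lowest of each marker list; other markers and pairs were named after their values were seen. Alternatives were the 90th and 99th percentile, another reference, the median over features, each array alone, quantile normalization and another centring. Python 3.11.15 with pandas 2.3.3 and numpy 2.4.6 was used.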

Additional observations from a re-analysis of the deposited data

How the results depend on the processing

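The count of ligands above the threshold was 6 of 7 under every alternative run, the 90th and 99th percentile of the reference, 57 keratin-associated protein and Rhox genes as reference, the median over features, and without replicate 1 or replicate 2 (6 on either array alone), while the share of all named genes that passed ranged from 19.8% to 39%. Only the 99th percentile and the other reference could have removed a ligand. The 90th percentile is laxer, and a gene that passes on both arrays passes on each alone. Each measured ligand has 1 feature, so the median over features left its margin unchanged. With the 99th percentile, stricter by construction, receptors above it numbered 2 of 8 and other ligands 5 of 22. These counts were close to the share among protein-coding genes outside the reference at that percentile, 22.8%. Under the other settings receptors numbered 5 to 7 and other ligands 11 or 12, and regulators numbered 10 to 13 of 14 under all. Each array alone gave 6 receptors, with Cd28 added without replicate 1 and Cd96 without replicate 2. Both were added with the 90th percentile, and Cd28 with the other reference. The median difference of the ligands was 0.19 after quantile normalization and 0.09 when centred on protein-coding genes above the threshold, against 0.22. The difference of Cd80 changed sign there, to -0.08 and -0.07, and those of the other 6 ligands kept their sign. The threshold rests on probes of other genes, and below it, as for Vtcn1, signal cannot be told from that of the reference. No paired analysis was possible because the series holds 1 group.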

Other observations

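Gene families related to the ligands were looked at after the values were seen, by symbol, and are described only. Beside their counts stands the 39% of protein-coding genes outside the reference that passed on both arrays, against which no family was tested. Of 7 numbered galectin genes 6 passed the threshold on both arrays. Besides Lgals9 and Lgals1 these were Lgals2, with log2 signals of 12.25 and 11.19 in replicates 1 and 2, Lgals4, with 11.50 on both, Lgals8 (8.38 and 8.25) and Lgals3 (7.88 and 7.73). Lgals7, known from stratified epithelium, gave 5.33 and 5.19. Galectins 2 and 4 are known from intestinal epithelium, and the part of epithelial cells in these signals was not tested.

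Of 15 CEACAM genes 3 passed, Ceacam1, Ceacam2 (9.68 and 9.80) and the intestinal gene Ceacam20 (7.09 and 6.78). Butyrophilin and butyrophilin-like genes, which belong to the wider B7 family, passed in 2 of 8 cases. These were Btnl4 (6.80 and 7.23) and Btnl6 (7.54 and 6.82), which are known from gut epithelium. Btnl1 (6.04 and 5.70) passed on neither array, and Btnl2 (6.02 and 6.35) in replicate 2 only. None of 11 Skint genes, relatives known from skin and thymus, passed, and their log2 signals reached at most 5.72 in replicate 1 and 5.57 in replicate 2, both for Skint11. Cd47, whose product restrains phagocytes through SIRP alpha, gave 13.26 and 13.58, and the receptor gene Sirpa 9.97 and 10.13. Cd200 gave 8.29 and 8.45, whereas its receptor gene Cd200r1, at 5.17 and 4.90, did not pass.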
